A study of Mus musculus with 5 samples.

Results

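The messenger RNAs of 10 enzymes that break down glucose and glycogen were followed in differentiated primary mouse myoblasts, out of 54232 genes listed in the deposited table. Hk1, Hk2, Pfkm, Aldoa, Gapdh, Pgk1, Pgam2, Pkm and Ldha encode steps of glycolysis from the first phosphorylation of glucose to lactate, and Pygm encodes the glycogen phosphorylase of muscle. They were chosen by name, for their place in the pathway, and all 10 passed the filter on low values that left 18156 genes to test. The enolases were not part of the list. Myoblasts came from the leg muscles of WT mice (n = 3) and of Elmo2EID/EID mice (n = 2), were sorted as satellite cells with magnetic beads, and were kept in differentiation medium for 72 h. Elmo2EID/EID mice carry a knock-in point mutation in both copies of Elmo2 that favours the open form of ELMO2, an adaptor of the DOCK activators of RAC1, and the animals of the study had a mixed C57BL6 and 129SV background. The mutation is present in every cell of the animal, not in muscle alone, and mice aged 6 to 8 weeks gave the myoblasts. The design text counts these samples as mice, and the animal behind each is not named. The mutation changes a codon, so that a count per gene does not check the genotype labels.

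Glycolysis splits glucose into pyruvate and gains ATP and NADH, and lactate dehydrogenase turns pyruvate into lactate when NADH has to be reoxidised. Skeletal muscle stores glycogen and uses it during contraction: glycogen phosphorylase releases glucose units already phosphorylated, which enter glycolysis below hexokinase. Most steps have a muscle form and other forms made by paralogous genes, and the muscle forms are switched on as myoblasts become myotubes. PFKM, PGAM2 and PYGM are the muscle forms, and loss of any of them causes a muscle glycogen storage disease in humans. HK2 is the hexokinase of insulin-responsive tissue, HK1 is found in most tissues, and PKM is spliced into the M1 and M2 forms, which a count per gene does not separate.

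All 10 transcripts were abundant in both genotypes, and none of them passed the test between Elmo2EID/EID and WT. Adjusted p-values were 0.383 or higher, by limma after Benjamini-Hochberg adjustment over the 18156 genes, against 2.23% of all genes called in this comparison. Of the 10, 9 had a log2 fold change below 0 and 1, Gapdh, above 0. The 10 enzymes together took between 1.16% and 1.29% of the normalized counts of a sample. Among pseudogenes that share sequence with the pathway's genes, 2 copies of Ldha and 1 copy of Gpi1, the isomerase step, were called higher in Elmo2EID/EID, with gains under 1% of the WT level of their parent genes. The 2 copies of Ldha were all that was called of 129 copies of the 10 enzymes tested, where 6.9% of all pseudogenes tested were called higher, and each of the 3 calls was lost when certain single samples were left out. Of these 2, Gm13365 had no WT reads and passed the filter on low values only through the Elmo2EID/EID samples.

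These copies are processed pseudogenes, reverse-transcribed messenger RNAs that landed elsewhere in the genome, and their reads can be told from those of the parent gene where bases differ. Stretches of 100 bases are shown because they carry these differences. They are given 5′ to 3′ from GENCODE release M21 on GRCm38, the differing bases are in capitals, and positions in a parent are counted from 1 at the first base of its coding sequence. Gm5452 (chr13:83832340-83833336, plus strand) differed from Ldha at 39 of 995 aligned bases, an identity of 96.1%, and 8 of the differences lie in the stretch shown, coding bases 80 to 179 of Ldha and chr13:83832420-83832519 of the copy.
Ldha: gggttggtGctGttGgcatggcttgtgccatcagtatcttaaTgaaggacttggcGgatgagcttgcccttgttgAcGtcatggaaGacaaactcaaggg
Gm5452: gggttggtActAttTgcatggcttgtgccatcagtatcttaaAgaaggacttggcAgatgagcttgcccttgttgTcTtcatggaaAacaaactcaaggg
Gm13365 (chr2:15396748-15397720, plus strand) differed from Ldha at 74 of 972 aligned bases, an identity of 92.4%, with 14 differences in the stretch from coding base 459 to 558, at chr2:15397183-15397282 in the copy.
Ldha: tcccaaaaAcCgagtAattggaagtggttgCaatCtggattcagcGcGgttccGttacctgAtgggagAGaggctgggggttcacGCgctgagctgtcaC
Gm13365: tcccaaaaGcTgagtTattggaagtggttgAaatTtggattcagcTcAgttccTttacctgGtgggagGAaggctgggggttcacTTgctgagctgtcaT
Gm1840 (chr8:5639580-5641011, plus strand) differed from Gpi1 at 20 of 1432 aligned bases, an identity of 98.6%, with 3 differences in the stretch from coding base 184 to 283, at chr8:5639749-5639848 in the copy.
Gpi1: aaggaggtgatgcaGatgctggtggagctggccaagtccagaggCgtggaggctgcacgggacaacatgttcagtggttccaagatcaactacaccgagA
Gm1840: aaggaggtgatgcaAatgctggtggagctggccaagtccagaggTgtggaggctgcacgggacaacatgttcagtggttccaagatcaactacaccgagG

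Counts were deposited per gene, divided by a size factor for each sample, and are called normalized counts here. Behind them stood recovered totals of 35021856 to 49381544 reads a sample, at which 3 reads correspond to 2.65 to 3.73 normalized counts. Counting error was therefore small for the 10 enzymes, the lowest of which had 3798 normalized counts, and the spread between samples set the precision. Fold changes are Elmo2EID/EID over WT on the log2(normalized count + 1) scale, with 95% intervals from limma. In bulk samples, fewer cells of a type and less RNA per cell cannot be told apart.

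Samples were first checked for the cells they hold. All 9 myotube markers, such as Myog, Ckm and Acta1, were detected, and together they took 4.24% to 4.95% of the normalized counts of a sample. Endothelial markers summed to 166 to 904 normalized counts in WT and to 2479 to 3728 in Elmo2EID/EID, with no overlap between the groups for 8 of 8 markers, where 32.6% of all genes tested had none. All 8 had a log2 fold change above 0 (median 2.51), 7 had an unadjusted p under 0.05, and 0 were called by limma (lowest adjusted p = 0.0694). Cycling cell markers summed to 2090 to 2973 in WT and 1951 to 2121 in Elmo2EID/EID. Each of the 5 had a log2 fold change below 0 (median -0.36), and the groups did not overlap for 2. By limma 2 had an unadjusted p under 0.05 (15.2% over all genes) and 0 were called (lowest adjusted p = 0.216). Of the pericyte markers Rgs5 was called lower in Elmo2EID/EID, with a log2 fold change of -2.97 (adjusted p = 0.00759, limma with Benjamini-Hochberg adjustment), while the 4 markers summed to 2375 to 3950 in WT and 3295 to 3421 in Elmo2EID/EID. Cspg4 went the other way, with a log2 fold change of 0.39 and no overlap (adjusted p = 0.264 from limma). Pdgfrb had -0.30 with overlap (adjusted p = 0.762 from limma). Fibro-adipogenic markers (4435 to 18564 in WT, 8087 to 15730 in Elmo2EID/EID), Schwann cell markers (43.7 to 232 and 180 to 292) and adipocyte markers (38.1 to 308 and 292 to 385) overlapped in sum. Col1a1 made up most of the fibro-adipogenic sums (4313 to 17800 and 7803 to 15161), and Fabp4 most of the adipocyte sums. Of the 4 fibro-adipogenic markers tested, 1 did not overlap, Dcn, with 1.77 to 4.97 and 8.05 to 17.9 normalized counts (adjusted p = 0.199 from limma). Macrophage markers summed to 21.1 to 26.9 in WT and 35.9 to 58.1 in Elmo2EID/EID, and Cd68 made up most of these sums. Among the 3 tested, only Cd68 did not overlap, with 17.4 to 20.3 and 33.98 to 34.96 normalized counts (adjusted p = 0.199 from limma). Csf1r had 2.49 to 5.61 in WT against 16.1 and 0.896 in Elmo2EID/EID replicates 1 and 2. Adgre1 had 0.884 to 1.24 in WT against 5.37 and 0 in the same replicates. The markers Lum, Kcnj8, Ptprc, Adipoq and Plin1 were at or under 3 reads in every sample. The part of other cell types in the enzyme values was not tested.

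Hexokinases phosphorylate glucose and thereby hold it in the cell. Hk1 (ENSMUSG00000037012, chromosome 10, 62268855 to 62379908) had 4859, 4723 and 5245 normalized counts in WT against 4781 and 4580 in Elmo2EID/EID. The groups overlapped, and the log2 fold change was -0.08 (95% interval -0.24 to 0.09, adjusted p = 0.667 from limma). Hk2 (ENSMUSG00000000628, chromosome 6, 82725025 to 82774454), the insulin-responsive form, had 4249, 4713 and 4074 normalized counts in WT, and 4173 and 3798 in Elmo2EID/EID samples. Elmo2EID/EID replicate 2 was the lowest of the 5 samples for both genes. The log2 fold change of Hk2 was -0.12 (95% interval -0.32 to 0.08, adjusted p = 0.554 from limma). Hk3 and Hkdc1, which encode other hexokinases, stayed under 3 reads in every sample.

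Phosphofructokinase commits sugar phosphate to glycolysis and is its main point of control. Pfkm (ENSMUSG00000033065, chromosome 15, 98092589 to 98132451) had 38838, 44702 and 45464 normalized counts in WT against 46995 and 36422 in Elmo2EID/EID. The Elmo2EID/EID samples were the highest and the lowest of the 5, replicate 2 lying 22.5% below replicate 1, and the log2 fold change was -0.05 (95% interval -0.35 to 0.25, adjusted p = 0.891 from limma). The genes of the liver and platelet forms had fewer, Pfkl between 760.5 and 1249 and Pfkp between 1039 and 1501 normalized counts over the 5 samples. Gpi1, which converts the product of hexokinase into the substrate of phosphofructokinase, had 34746 to 38013 normalized counts over the 5 samples, and its log2 fold change was -0.04.

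Aldolase cuts the sugar bisphosphate into a pair of triose phosphates. Aldoa (ENSMUSG00000030695, chromosome 7, 126795234 to 126800751) had the highest counts of the 10, with 179494, 191869 and 190807 normalized counts in WT, and 177750 and 173086 in Elmo2EID/EID samples. Both Elmo2EID/EID samples lay below all WT samples, replicate 1 only just below WT replicate 1. The log2 fold change of -0.09 had a 95% interval of -0.30 to 0.11 (adjusted p = 0.673 from limma). Groups without overlap were common in this comparison (32.6%). Aldoc, the form best known from brain, had 67.1, 112 and 74.6 normalized counts in WT against 34.9 and 35.9 in Elmo2EID/EID. The Elmo2EID/EID samples were again below all WT samples, with a log2 fold change of -1.20 (95% interval -1.84 to -0.56), which did not pass the test by limma (adjusted p = 0.0839) or by edgeR (adjusted p = 0.0866) and passed by the DESeq2 Wald test (adjusted p = 0.018). Tpi1, which interconverts the triose phosphates, had 24488 to 29057 normalized counts, and its log2 fold change was 0.02.

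**Figure D1:**
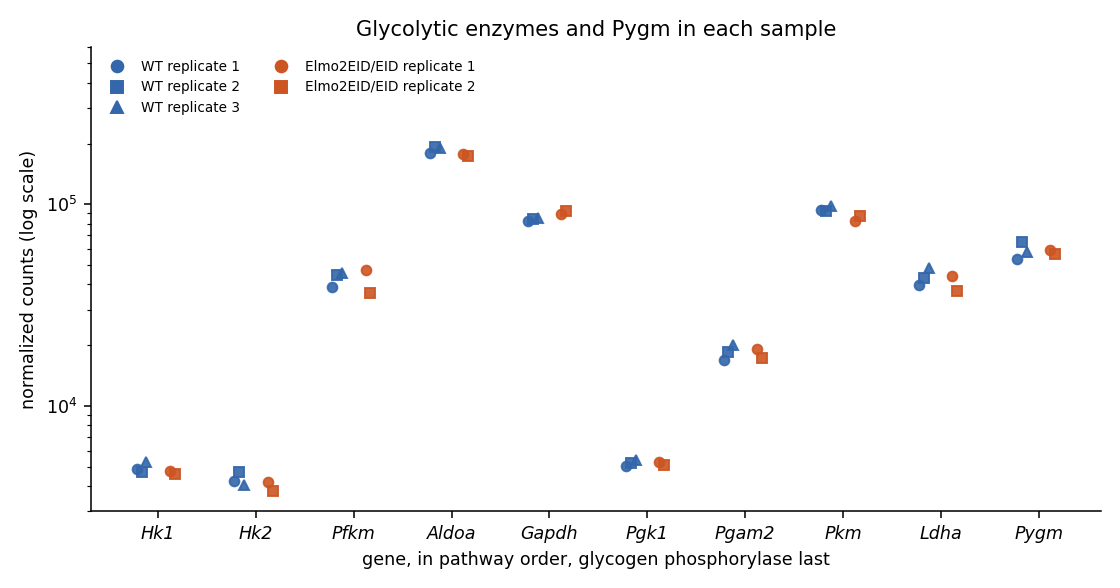
Normalized counts (log scale) of the 10 enzymes, in pathway order with Pygm last, in each sample of differentiated myoblasts. Blue marks are the 3 WT samples and orange marks the 2 Elmo2EID/EID samples, with circles, squares and triangles for replicates 1, 2 and 3. Levels ran from 3798 for Hk2 to 191869 for Aldoa, and the genotypes overlapped for all but Aldoa, Gapdh and Pkm.

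Gapdh and Pgk1 carry out the step that makes NADH and the first step that returns ATP. Gapdh (ENSMUSG00000057666, chromosome 6, 125161715 to 125166467) had 82569, 84614 and 85609 normalized counts in WT, and 89074 and 92732 in Elmo2EID/EID samples. Both Elmo2EID/EID samples were above all WT samples, and the log2 fold change was 0.11 (95% interval -0.06 to 0.28, adjusted p = 0.542 from limma). Gapdh was the steadiest of the 10 in WT, with a coefficient of variation of 1.84%. Pgk1 (ENSMUSG00000062070, chromosome X, 106187100 to 106203699) had 5056, 5230 and 5392 normalized counts in WT against 5298 and 5093 in Elmo2EID/EID. The groups overlapped, and the log2 fold change was -0.01 (95% interval -0.15 to 0.14, adjusted p = 0.966 from limma). Gapdhs and Pgk2, the forms of sperm, stayed under 3 reads in every sample, Pgk2 with no reads in any.

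Phosphoglycerate mutase moves the phosphate within the triose acid, and PGAM2 is its muscle form. Pgam2 (ENSMUSG00000020475, chromosome 11, 5801640 to 5803733) had 16951, 18569 and 20053 normalized counts in WT, and 19059 and 17364 in Elmo2EID/EID samples. Both Elmo2EID/EID values lay inside the WT range, and the log2 fold change was -0.02 (95% interval -0.23 to 0.19, adjusted p = 0.934 from limma). Pgam1, the form of most other tissues, had 585.5 to 728.0 normalized counts over the 5 samples.

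Pyruvate kinase makes pyruvate and ATP, and lactate dehydrogenase A makes lactate. Pkm (ENSMUSG00000032294, chromosome 9, 59656368 to 59679375) had 93887, 92921 and 97841 normalized counts in WT against 82202 and 87492 in Elmo2EID/EID. Both Elmo2EID/EID samples lay below all WT samples, and the log2 fold change of -0.16 (95% interval -0.34 to 0.02) had an unadjusted p of 0.0722 and an adjusted p of 0.383 from limma. It was the largest log2 fold change of the 10 in size. Ldha (ENSMUSG00000063229, chromosome 7, 46841475 to 46855627) had 39847, 42955 and 48201 normalized counts in WT, and 44160 and 37115 in Elmo2EID/EID samples. It varied most within WT, with a coefficient of variation of 9.67%, Elmo2EID/EID replicate 2 lay 16.0% below replicate 1, and the log2 fold change was -0.10 (95% interval -0.37 to 0.16, adjusted p = 0.729 from limma). Ldhb, the heart form, had 983.4 to 1271 normalized counts over the 5 samples. Pklr, the pyruvate kinase of liver and red cells, had no reads in any sample, and Ldhc, the form of sperm, stayed under 3 reads in each.

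Glycogen phosphorylase shortens glycogen chains. Pygm (ENSMUSG00000032648, chromosome 19, 6384399 to 6398459) had 53548, 64716 and 57933 normalized counts in WT against 59101 and 56751 in Elmo2EID/EID. Both Elmo2EID/EID values lay inside the WT range, and the log2 fold change was -0.02 (95% interval -0.24 to 0.21, adjusted p = 0.959 from limma). Pygb, the brain form, had 619.4, 554.1 and 616.6 normalized counts in WT, and 533.0 and 374.7 in Elmo2EID/EID samples. Its groups did not overlap, with a log2 fold change of -0.41 that did not pass (adjusted p = 0.28 from limma), and that was -0.67 without Elmo2EID/EID replicate 1 and -0.16 without replicate 2. Pygl, the liver form, had 10.8 to 24.9 normalized counts.

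None of the 10 enzymes had an unadjusted p under 0.05 by limma with the filter and no block, or by edgeR's quasi-likelihood test, where 15.2% of all genes tested had one by limma. Pkm had one by the DESeq2 Wald test (unadjusted p = 0.0237, adjusted p = 0.234) and by limma without the filter (unadjusted p = 0.046, adjusted p = 0.4), and Hk2 by limma with crossed replicate numbers (unadjusted p = 0.0367, adjusted p = 0.212). Aldoa, Gapdh and Pkm, 3 of the 10, had genotypes without overlap, a share close to the 32.6% of all genes. The median log2 fold change of the 10 was -0.06, beside 0.01 for all genes tested. The 95% intervals reached from -0.37, a fold of 0.774, at the lowest for Ldha to 0.28 at the highest for Gapdh, so larger changes in either direction lay outside the interval of every one of the 10.

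**Figure D2:**
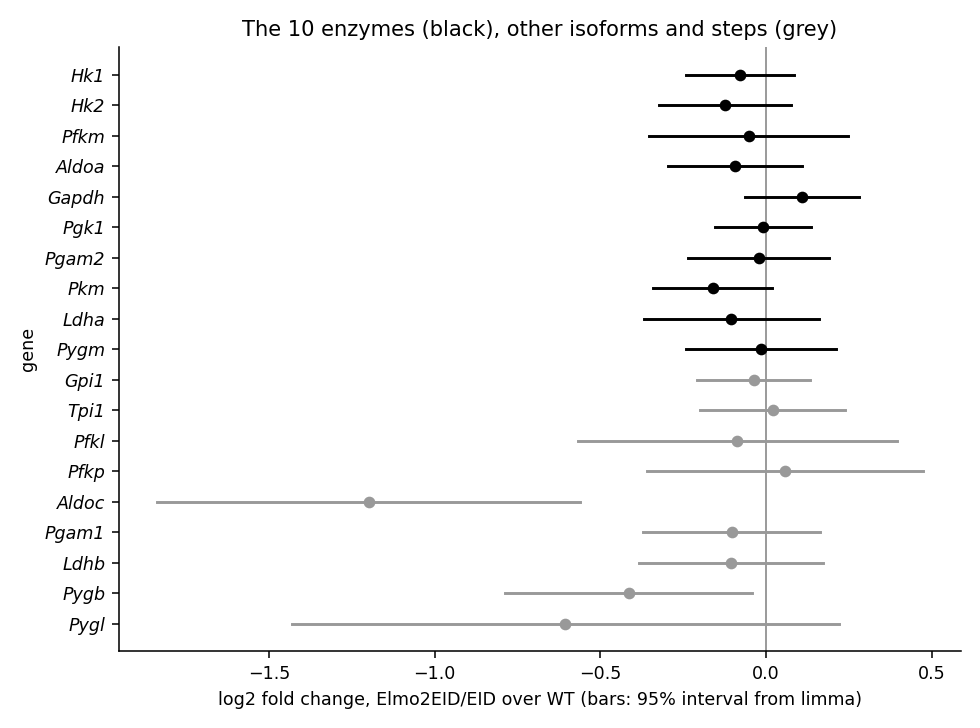
Log2 fold change, Elmo2EID/EID (n = 2) over WT (n = 3), of the 10 enzymes (black) and of other isoforms and steps (grey), with 95% intervals from limma as bars. All 10 black intervals cross 0, from -0.37 for Ldha to 0.28 for Gapdh, and the grey intervals that lie below 0 are those of Aldoc (-1.20) and Pygb (-0.41), neither of which passed adjustment by limma.

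How the enzymes varied between samples was then described. For 6 of the 10 the gap between the Elmo2EID/EID samples exceeded the difference between the genotypes. Elmo2EID/EID replicate 2 lay below replicate 1 for 8 of the 10, with Gapdh and Pkm the other way, beside 58.9% of the 6194 genes whose mean reached 1000 normalized counts. It was the lowest of all 5 samples for 5 of them, Hk1, Hk2, Pfkm, Aldoa and Ldha. Within WT, replicate 3 was the highest for 7 of the 10 and replicate 1 the lowest for 7. The coefficient of variation in WT had a median of 6.54% over the 10 enzymes and of 5.29% over those 6194 genes. Summed, the 10 enzymes had 519300, 555014 and 560620 normalized counts in WT against 532594 and 514434 in Elmo2EID/EID, which overlapped.

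Levels can be compared between genes only per length, and here are normalized counts per kilobase of the principal transcript, averaged over the 5 samples. Aldoa led at 120848, followed by Gapdh at 61211 and Pkm at 37364, with the ranges over samples apart at each step. Ldha at 24041, Pgam2 at 21904 and Pygm at 20324 came next, and the ranges of neighbours in this trio overlapped. Pfkm at 14757 was below them, and Pgk1 at 2857, Hk1 at 1256 and Hk2 at 762.1 followed with ranges apart. Pgk1 thus stood below both Gapdh and Pgam2, its neighbours in the pathway. Divided by the length of all exons of the gene instead, Aldoa stayed first, Pgam2 moved from place 5 to place 2, and Hk1 and Hk2 changed places, while Pfkm and Pgk1 kept places 7 and 8.

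These levels also depend on how many reads of a gene align uniquely, since reads with several alignments were not counted. The share of 50-base words, the length of a read, that occur in transcripts of other genes was 82.5% for Gapdh, 68.0% for Pgk1, 30.5% for Pkm, 17.1% for Ldha, 13.9% for Aldoa and 0.46% for Pygm. For Hk1, Hk2, Pfkm and Pgam2 it was 0. Counting only 300-base windows of which both 50-base ends occur in the same other gene, as a read pair would need, the share was 78.6% for Gapdh, 62.7% for Pgk1, 12.0% for Pkm, 1.57% for Ldha and 0 for Aldoa and Pygm. For Pygm the words were 13 shared with Pygb. The levels of Gapdh and Pgk1 are therefore uncertain and may be too low. Their place in the order is uncertain too, that of Gapdh below Aldoa included. For Pgk1 the copy Pgk1-rs7 was identical to the parent over 1255 of 1255 aligned bases. The Pkm gene also overlaps 1 other annotated gene on the same strand, Gm49759.

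**Figure D3:**
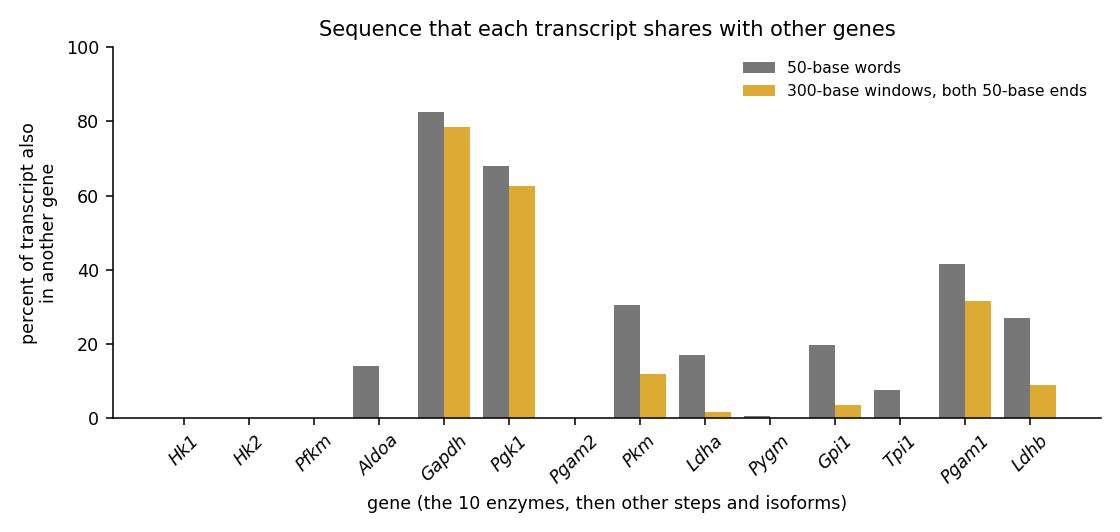
Percent of 50-base words (grey) and of 300-base windows with both 50-base ends (yellow) of the principal transcript that also occur in another gene, for the 10 enzymes, then Gpi1, Tpi1, Pgam1 and Ldhb. Gapdh (82.5% of words) and Pgk1 (68.0%) share most of their sequence, and Hk1, Hk2, Pfkm and Pgam2 share none.

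Isoform ratios were taken within each sample, on the per-kilobase scale. Pygm stood at 113 to 197 times the sum of Pygb and Pygl over the 5 samples, Pgam2 at 49.1 to 66.9 times Pgam1, Pfkm at 20.7 to 34.1 times the sum of Pfkl and Pfkp, and Ldha at 24.1 to 28.6 times Ldhb. Hk2 was below Hk1 in all 5 samples, at 0.543 to 0.697 of it, an order that reverses when all exons are used as the length, at 703.9 normalized counts per kilobase for Hk2 and 567.0 for Hk1. The ratio with Pgam1 is less certain than the others, since 41.5% of the 50-base words of Pgam1 and 27.0% of those of Ldhb occur in other genes.

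Between genotypes, 6 ratios were compared by an exact permutation test over samples, two-sided, in which 10 arrangements give no p below 0.1. In WT, Aldoa over Aldoc was 4856, 3126 and 4655, and the Elmo2EID/EID samples had 9135 and 8658. Its log2 ratio was 1.11 higher in Elmo2EID/EID with no overlap (exact p = 0.1, the smallest possible, and 0.6 adjusted over the 6 ratios), and Aldoc, not Aldoa, had the larger log2 fold change in size. Pygm over Pygb plus Pygl was 0.41 higher in log2 with overlap (exact p = 0.3, 0.9 adjusted), and the difference was 0.63 without Elmo2EID/EID replicate 1 and 0.18 without replicate 2. The other 4 ratios overlapped between the genotypes and differed by -0.05 to 0.08 in log2, with exact p of 0.7 or higher. With 10 arrangements, this test cannot give a p under 0.05 for any ratio.

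**Figure D4:**
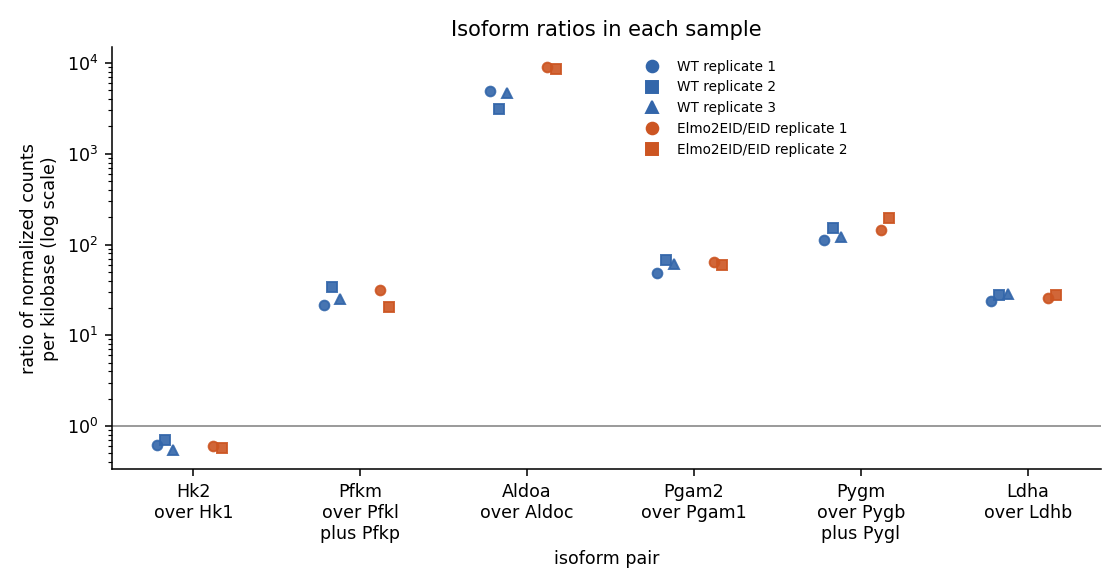
Ratio of normalized counts per kilobase (log scale) of the muscle or main form to other forms of the same step in each sample, WT in blue and Elmo2EID/EID in orange, with the grey line at a ratio of 1. Aldoa over Aldoc separates the genotypes (3126 to 4856 against 8658 to 9135), and Hk2 over Hk1 is the 1 ratio below 1, at 0.543 to 0.697, and lies above 1 when all exons are used as the length.

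The promoters of the isoforms were compared by their letters because the muscle and other forms differ in level, with Pygm at 113 to 197 times the sum of Pygb and Pygl. The 250 bases before the RefSeq start on GRCm38.p6 are shown, with the E-box CANNTG in capitals, the core bound by MYOD and MYOG. Pygm (chr19:6384158-6384407, plus strand) holds 2, both CAGCTG, and Pygb (chr2:150786546-150786795, plus strand) holds 0. Both windows reach past the GENCODE starts of these genes, 6384399 and 150786735, so the second CAGCTG of Pygm lies within its gene span. Pygl was not read.
Pygm: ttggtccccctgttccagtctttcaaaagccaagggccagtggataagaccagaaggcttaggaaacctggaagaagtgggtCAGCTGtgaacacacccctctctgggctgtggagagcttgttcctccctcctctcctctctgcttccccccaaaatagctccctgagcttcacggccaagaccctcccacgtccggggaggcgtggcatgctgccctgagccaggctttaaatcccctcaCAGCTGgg
Pygb: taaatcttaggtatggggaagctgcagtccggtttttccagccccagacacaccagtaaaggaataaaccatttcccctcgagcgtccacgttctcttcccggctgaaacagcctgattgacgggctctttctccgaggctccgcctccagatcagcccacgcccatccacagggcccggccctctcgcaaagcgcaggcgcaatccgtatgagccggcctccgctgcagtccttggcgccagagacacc
In the same window the muscle mutase gene Pgam2 holds 5 CANNTG, 1 of them CAGCTG, and Pgam1 holds 0. The phosphofructokinase genes show no such order: the 4 windows of Pfkm hold 3, 0, 1 and 1 CANNTG, Pfkl holds 3 and Pfkp 0, and CAGCTG is in none of these. Hk1 holds 2 and 1 in its 2 windows and Hk2 0, Aldoa 1 in each of 3 and Aldoc 0 in both, and Ldha 2 in each of 2 and Ldhb 0. Of the Aldoa windows 2 overlap and hold the same site. The motif CANNTG reads the same on both strands and occurs in 66.2% of 32851 such windows, with a mean of 1.16 a window, and CAGCTG, which is contained in it, occurs in 13.0%. A match is a description of these letters and shows no binding.

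Around the 10 enzymes, 80 further genes of the pathway were read from the same fit, in lists of glucose transport (3 genes), other glycolysis (16), other glycogen (23), pyruvate and lactate fate (15), regulators (11) and hypoxia response (12). Of the 80, 71 passed the filter and 0 were called by limma or edgeR, against 2.23% of all genes. At an unadjusted p under 0.05 by limma 12 passed, 6 higher and 6 lower, where 15.2% of all genes did. The groups did not overlap for 20 of 71, against 32.6% of all genes, and the median log2 fold change was 0.04. The DESeq2 Wald test called 3 of them among 961 genes in all, Aldoc, Ddit4 and Pdha1, and the last 2 were named after their values were seen. Ddit4, a stress-induced inhibitor of mTORC1, had a log2 fold change of -0.70 and the lowest adjusted p of the lists by limma, 0.0609. Pdha1, a subunit of the pyruvate dehydrogenase complex, had 27173, 26694 and 26946 normalized counts in WT against 31414 and 32236 in Elmo2EID/EID, a log2 fold change of 0.24 (adjusted p = 0.111 from limma).

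Glycogen synthesis and its control were read beside Pygm. Gys1, the glycogen synthase of muscle, had 18532, 19159 and 20707 normalized counts in WT, and 21003 and 16970 in Elmo2EID/EID samples, and Gys2, that of liver, had no reads in any sample. Gyg, the primer on which glycogen starts, had 7883 to 9455 normalized counts over the 5 samples, and Gbe1, the branching enzyme, 1737 to 2080. The phosphorylase kinase subunits Phka1 and Phkg1 had 2843 to 4122 and 75.1 to 137. Adjusted p-values of these 4 genes and Gys1 were 0.709 or higher by limma, and the groups overlapped for each. Of the 22 genes tested in the glycogen list, 11 had a log2 fold change above 0 and 11 below, the groups did not overlap for 7 (32.6% over all genes), and 3 had an unadjusted p under 0.05 by limma (15.2% over all genes), Pygb and 2 genes named after their values were seen. Pgm1, which converts the phosphorylated glucose from glycogen for glycolysis, had a log2 fold change of -0.29 (95% interval -0.52 to -0.07, adjusted p = 0.209 from limma). Ugp2, which makes the UDP-glucose for glycogen synthesis, had one of 0.17 (95% interval 0.03 to 0.30, adjusted p = 0.244 from limma).

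Copies of the enzymes were read last, a set looked at after the shared words were counted. Over the 10 enzymes, 244 pseudogenes share at least 1 50-base word with the principal transcript, 213 of them with Gapdh, 14 with Ldha, 7 with Pkm and 5 each with Aldoa and Pgk1. Of these, 239 are in the table and 129 passed the filter, 117 of them copies of Gapdh. The test called 2 of 129 higher and 0 lower in Elmo2EID/EID, a smaller share than over all pseudogenes. Both are among the 6 copies of Ldha tested, and 0 of 117 copies of Gapdh were called. The copies of Gapdh summed to 2242, 2293 and 2295 normalized counts in WT against 2321 and 2403 in Elmo2EID/EID, higher in both Elmo2EID/EID samples, as Gapdh was.

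Gm5452 had 9.72, 16.8 and 16.2 normalized counts in WT, and 152 and 141 in Elmo2EID/EID samples, well apart, and rose with a log2 fold change of 3.31 (SE 0.30, adjusted p = 0.00438 from limma). The gain of 132 normalized counts is 0.303% of the mean level of Ldha in WT, and Ldha itself was 3030 lower in Elmo2EID/EID on average. Gm5452 lies within the span of the lincRNA gene C130071C03Rik on the same strand, outside its exons, and that gene had 0 to 4.48 normalized counts. The call was lost without either Elmo2EID/EID replicate (adjusted p = 0.0757 and 0.0864 from limma), with log2 fold changes of 3.25 and 3.36. With 1 Elmo2EID/EID sample left, here and below, the spread comes from WT alone and the lone sample is assumed to vary like WT. Gm13365 had no reads in any WT sample and 24.1 and 14.3 normalized counts in Elmo2EID/EID, and the Elmo2EID/EID mean was 5.16 times the largest per-library floor of 3 reads, so at least 5.16-fold higher than WT on average (adjusted p = 0.0122 from limma). It passed the filter on low values only through the Elmo2EID/EID samples, where it is high, so that its call is a weak one, and it was not tested under the filter on a mean of 10. Its call was lost with the replicate number as a block (adjusted p = 0.0673), without WT replicate 1 (0.0513) and without either Elmo2EID/EID replicate (0.0963 and 0.0983), all by limma. The fitted log2 fold change, which depends on the pseudocount, was 4.3 with all samples and 3.94 to 4.65 in these fits.

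Gm1840, the copy of Gpi1, had 157, 139 and 132 normalized counts in WT against 315 and 451 in Elmo2EID/EID. It rose with a log2 fold change of 1.4 (SE 0.18, adjusted p = 0.0167 from limma), a gain of 240.2 normalized counts or 0.644% of the level of Gpi1 in WT. Its call was lost under 6 alternatives by limma: no filter (adjusted p = 0.0687), no trend (0.0875), the replicate block (0.0705), and without WT replicate 1 (0.0513), WT replicate 2 (0.0541) or Elmo2EID/EID replicate 2 (0.127). The log2 fold change was 1.14 to 1.47 in these fits. For all 3 copies, edgeR (adjusted p = 0.00168, 0.0387 and 0.0138 for Gm5452, Gm13365 and Gm1840) and the DESeq2 Wald test made the same call. The same reads went into each tool, and Gm13365 had no WT reads, so this is no separate support. Since the copies share words with their parents, reads of parent and copy may have been split between them by the counting of unique alignments, and this was not tested.

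**Figure D5:**
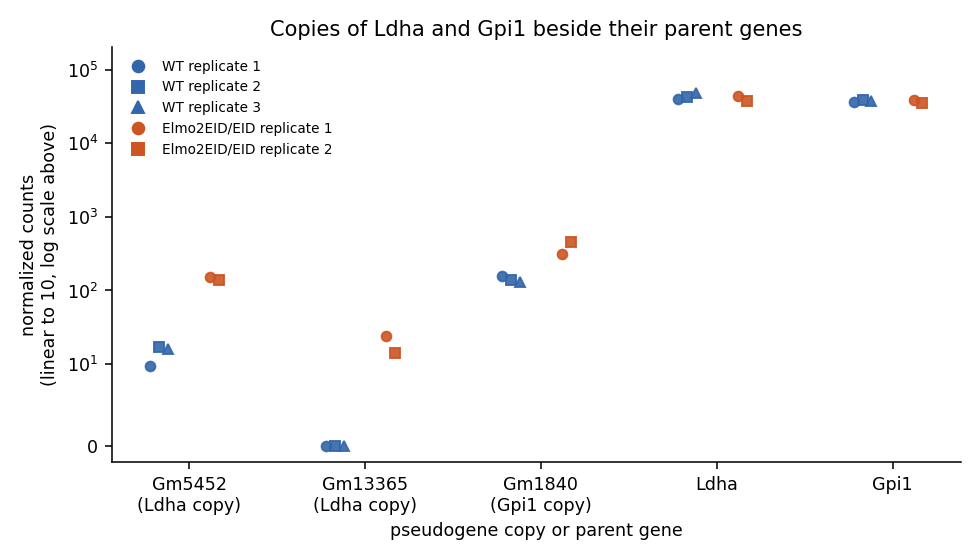
Normalized counts (linear to 10, log scale above) of the called pseudogene copies of Ldha and Gpi1 and of the parent genes in each sample, WT in blue and Elmo2EID/EID in orange. Gm5452 lies at 9.72 to 16.8 in WT and 141 to 152 in Elmo2EID/EID, while Ldha lies between 37115 and 48201 and Gpi1 between 34746 and 38013 with the genotypes overlapping.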

How the data were processed

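RNA was measured by sequencing of poly-A libraries, read as stranded pairs of 50 bases, from differentiated WT (n = 3) and Elmo2EID/EID (n = 2) myoblasts, with groups and replicate numbers from the sample labels. Per the labels and methods, the authors used STAR 2.5.1b to align the reads to GRCm38, took unique alignments into gene counts with featureCounts 1.4.6 and deposited a signal, the gene count divided by its DESeq2 1.34.0 size factor. All positive values (100.0%) were whole multiples of the smallest of their sample within 0.01 of a read, which gave back totals of 35021856 to 49381544 reads. Genes that reached 5 normalized counts in 1 sample or more were tested with limma 3.58.1 (R 4.3.3; lmFit, eBayes with trend, two-sided, pseudocount 1, Benjamini-Hochberg, threshold 0.05), and edgeR 4.0.16 and DESeq2 1.42.0 were run on recovered reads. The scripts were tested on simulated data. Replicates differed by more than sampling noise (chi-square per degree of freedom 26.6 to 37.8).

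Gene positions and transcripts came from GENCODE M21, which matched 54165 of 54232 identifiers, and promoters from RefSeq. Words and alignments were computed with Python 3.11.15, scipy 1.17.1 and pandas 2.3.3. A second gene of the annotation named Aldoa was not used. Named genes were the 10 enzymes, their paralogs, the steps between them and glycogen enzymes, and some of these are not reported here. The enzymes, lists and tests were chosen with earlier results of these data known.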

Additional observations from a re-analysis of the deposited data

How the results depend on the processing

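The 10 enzymes were called in none of 17 alternatives (lowest adjusted p 0.212, Hk2 with crossed replicate numbers, from limma), and 158 of 170 log2 fold changes kept their direction, as did 48 of 54 for the ratios. Part of this was fixed in advance, since other filters and the fit without trend leave the fold change of a gene as it was. The replicate block, crossed numbers and leaving out WT replicate 3 share the same fold change. Another length cannot alter the difference for a ratio of single genes. With the replicate block Pgk1 had 0.0144 and Pgam2 0.0362, each above 0, and the same values with crossed numbers, tried only after the data were seen, as the labels do not say what the numbers share (correlation of same-numbered differences -0.238 over 13769 genes, which are not independent replicates). Leaving out 1 sample at a time, the log2 fold change ran from -0.11 to -0.0339 for Hk1, -0.19 to -0.0556 for Hk2, -0.24 to 0.13 for Pfkm, -0.0368 to 0.0201 for Pgk1, -0.0899 to 0.0445 for Pgam2, -0.23 to 0.0206 for Ldha and -0.0803 to 0.0563 for Pygm, and the log2 difference of the ratios from -0.14 to 0.046 for Hk2 over Hk1, -0.34 to 0.25 for Pfkm, -0.0455 to 0.18 for Pgam2, 0.18 to 0.63 for Pygm and -0.0719 to 0.0615 for Ldha over Ldhb. Without Elmo2EID/EID replicate 2, Pfkm, Pgk1, Pgam2, Ldha and Pygm turned above 0. Over all genes, 404 were called: 155 without a filter, 144 without the trend, 961 by DESeq2, 224 with the replicate block, 1041 crossed, and 54 to 349 with 1 sample left out (150 without WT replicate 1, 209 without WT replicate 2, 112 without Elmo2EID/EID replicate 1 and 54 without replicate 2). Of the 80 pathway genes DESeq2 called 3 and the crossed pairing 4, Stbd1, Pdk4, Adm and Ddit4, named after their values were seen. The cause was not tested. With 2 samples in a group, changes within the intervals given are not excluded. Each interval is for a gene alone, without adjustment, and sets no limit on what the test could detect.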
